A study of Mus musculus with 9 samples.

Results

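The IGF axis was followed here through 10 mouse genes: the ligand genes Igf1 and Igf2, the non-coding neighbour of Igf2, H19, the receptor genes Igf1r and Igf2r, the binding protein genes Igfbp3, Igfbp4 and Igfbp5, and the docking protein genes Irs1 and Irs2. Members were all MyoD1 peaks that overlapped a gene body (GENCODE vM21, build mm10) extended by 10 kb on each side, by at least 1 bp. The 6 peak lists held 116126 peaks, which merged into 58309 regions where they overlapped or touched, and 48 of these regions lay in the 10 windows. No region lay in the windows of more than 1 of the genes. In the lists, 7, 13 and 10 peaks fell in the windows without dox, and 14, 10 and 46 with dox.

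The data came from CUT and RUN, in which an antibody carries a nuclease to a chromatin protein in permeabilised cells and the DNA freed around it is sequenced. The antibody was M2 anti-Flag. All 6 libraries were from C2C12, a mouse skeletal muscle myoblast line, in a single clone that carried a 3xFlag-HaloTag on endogenous MyoD1 and, in addition, a dox-inducible 3xFlag-Halo-MyoD1 transgene, so the libraries without dox also report tagged MyoD1, made at its own locus. The no dox group was untreated and the +dox group received doxycycline for 6 h, both from the moment of the switch to differentiation medium, with 3 biological replicates each. The series also has 3 libraries of untagged wild-type C2C12, which were not analysed here, and no value below is set against that background. All replicates were of 1 clone, and p-values cover only the spread between these cultures.

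The lists differed in depth and length. The maximum signals were whole multiples of the worth of 1 alignment, which put the depth at 4297000, 4429000 and 4667000 alignments for no dox replicates 1 to 3 and at 2868000, 3597000 and 8030000 for +dox replicates 1 to 3. The +dox replicate 3 list was the longest, with 53661 peaks against 9389 to 13877 in the other 5 lists, and its median peak reached 12 alignments at its maximum, against 14 to 26 in the others. Between 95.2 and 99.3% of the maxima were even numbers of alignments. Whether the coverage counted reads or fragments is not given in the sources used here. A peak that was not called has no value in a list, so "not called" below does not mean that no signal was there.

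MyoD1 is a basic helix-loop-helix factor that binds the E-box, CANNTG, and in muscle prefers CAGCTG. IGF1 and IGF2 are secreted growth factors that signal through the IGF1 receptor and the docking proteins IRS1 and IRS2 to PI3 kinase and Akt, and in muscle they promote both myoblast proliferation and differentiation. The IGF2 receptor takes up IGF2 for degradation, and the IGF binding proteins hold the ligands in the extracellular space. Igf2 and H19 are oppositely imprinted neighbours that share enhancers downstream of H19.

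The sequences below carry the main results. They show the 3 member regions called in all 6 libraries (Irs1, Igf1r and Irs2), the member region called in every +dox and no no dox library (at H19), and 2 further stretches chosen after their values were seen, the strongest intronic region of Igf2r and a region downstream of H19 that lay outside the windows. Each run is 300 bases of the plus strand of mm10 (GRCm38), and capitals mark E-boxes (CANNTG). Runs were centred on the maximum in the library where the region had its highest percentile. The exceptions were the Irs1 and Irs2 runs, moved by 314 and 54 bp to stay clear of UTRs. At Igf1r the maxima of the 6 libraries were spread over 2000 bp, so its run does not cover all of them.
Irs1 promoter, chr1:82291440-82291739: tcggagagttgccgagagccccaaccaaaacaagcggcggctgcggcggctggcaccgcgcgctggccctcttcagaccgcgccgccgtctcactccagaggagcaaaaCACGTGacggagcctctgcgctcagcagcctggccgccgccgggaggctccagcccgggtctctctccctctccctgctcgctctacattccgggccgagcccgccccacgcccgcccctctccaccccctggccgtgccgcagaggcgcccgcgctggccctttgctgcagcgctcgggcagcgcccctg
Igf1r promoter, chr7:67952976-67953275: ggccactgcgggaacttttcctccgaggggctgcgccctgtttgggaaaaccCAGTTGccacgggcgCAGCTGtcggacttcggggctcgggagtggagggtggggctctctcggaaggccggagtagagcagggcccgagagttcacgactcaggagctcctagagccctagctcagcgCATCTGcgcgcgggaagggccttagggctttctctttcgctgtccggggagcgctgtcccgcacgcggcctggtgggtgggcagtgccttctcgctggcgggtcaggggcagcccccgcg
Irs2 promoter, chr8:11008930-11009229: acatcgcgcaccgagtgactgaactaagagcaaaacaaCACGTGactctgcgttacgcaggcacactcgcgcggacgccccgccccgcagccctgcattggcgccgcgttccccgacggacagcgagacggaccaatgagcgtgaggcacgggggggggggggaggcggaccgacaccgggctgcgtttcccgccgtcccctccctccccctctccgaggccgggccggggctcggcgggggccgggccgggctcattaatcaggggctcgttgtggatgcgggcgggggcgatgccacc
H19 promoter, chr7:142578126-142578425: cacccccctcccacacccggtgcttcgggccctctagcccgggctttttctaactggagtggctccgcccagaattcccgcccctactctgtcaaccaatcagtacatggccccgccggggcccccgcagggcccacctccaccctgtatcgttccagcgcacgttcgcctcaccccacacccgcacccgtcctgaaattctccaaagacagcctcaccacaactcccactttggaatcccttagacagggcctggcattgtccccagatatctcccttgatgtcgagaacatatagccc
Igf2r intron, chr17:12759701-12760000: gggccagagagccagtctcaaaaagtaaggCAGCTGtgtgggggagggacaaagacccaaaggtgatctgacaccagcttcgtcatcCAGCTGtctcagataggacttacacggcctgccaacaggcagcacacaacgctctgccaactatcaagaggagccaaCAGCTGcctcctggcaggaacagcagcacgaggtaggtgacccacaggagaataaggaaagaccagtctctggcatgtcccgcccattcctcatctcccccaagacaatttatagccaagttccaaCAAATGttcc
downstream of H19, chr7:142551026-142551325: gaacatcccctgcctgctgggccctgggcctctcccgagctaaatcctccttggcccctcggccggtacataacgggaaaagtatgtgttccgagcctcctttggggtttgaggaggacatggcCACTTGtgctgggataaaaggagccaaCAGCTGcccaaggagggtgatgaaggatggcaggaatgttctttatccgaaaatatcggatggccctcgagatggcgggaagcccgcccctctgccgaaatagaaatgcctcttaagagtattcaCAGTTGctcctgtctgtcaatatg
The Igf2r run held 3 copies of CAGCTG, and the Igf1r run and the run downstream of H19 held 1 each. The Irs1 and Irs2 runs each held 1 E-box, CACGTG, and no CAGCTG. The H19 promoter run had no CANNTG at all. Since the Irs1 run does not cover the maximum of its region in the library with its highest percentile, its letters do not describe the sequence there. Within 150 bp of the maximum itself, 79.2% of the 48 member regions held a CANNTG and 33.3% a CAGCTG, against 85.2% and 37.4% of all 58309 regions.

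Igf1, the gene of the ligand IGF1, had no peak in its window in any no dox library. With dox it had 1, 0 and 5 peaks in replicates 1, 2 and 3. These formed 5 regions, 4 of them called in +dox replicate 3 alone. The region called most often, chr10:87879851-87880850 in an intron, was called in +dox replicate 1 with 14 alignments at its maximum, the 23.0th percentile of that list, and in +dox replicate 3 with 22 alignments, the 70.8th percentile. A percentile here ranks the maximum signal of a peak within its own list, with 100 the highest. The highest percentile at Igf1 was 81.1, in an intron, chr10:87926951-87928000, and rested on 34 alignments in +dox replicate 3 alone. Without that library, Igf1 kept 1 peak.

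Igf2, the gene of the ligand IGF2, had 1 peak over all 6 libraries. It was called in +dox replicate 2 with 12 alignments, the 12.5th percentile, at chr7:142659501-142660000. The place is an intron of Igf2, 112 bp from the nearest annotated start of an Igf2 transcript and 92 bp from that of the antisense gene Igf2os. The gene body of Igf2 and its 10 kb flanks were thus nearly free of calls, including in +dox replicate 3, the deepest library, which had none.

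H19, the imprinted non-coding RNA gene next to Igf2, was the one member whose peak count was higher in every +dox library than in every no dox library. It had 0, 0 and 0 peaks without dox and 1, 1 and 4 with dox. The same held for 731 of the 18468 protein coding and lincRNA genes with a peak in their window, or 3.96%, and the opposite for 3 genes, 0.0162%, none of them a member. With 3 against 3 libraries an exact two-sided test cannot go below p = 0.1 for a single gene, so no test was run on these counts.

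The region shared by the 3 +dox libraries was the H19 promoter. It spanned chr7:142577751-142578550, with its maximum 133 bp upstream of the H19 start, and was called in +dox replicates 1, 2 and 3 at the 40.6th, 42.4th and 54.0th percentile (mean 45.7 ± 7.27 SD, n = 3). The maxima were 20, 22 and 14 alignments, or 6.97, 6.12 and 1.74 CPM. It was the 1 member region of 48, or 2.08%, called with dox in 3 of 3 libraries and without it in 0 of 3. Over all merged regions the share was 1.09%, or 634 regions. Without +dox replicate 2 the member count was 5, under a rule that then asked for fewer +dox libraries. The share of all regions under that rule was not counted. The reverse pattern, 3 of 3 no dox and 0 of 3 +dox, held for 0 member regions and for 0.00858% of all regions. These calls were of middling height, and the H19 region was lost when 1 floor of 904 was set on total signal, where its +dox replicate 3 peak had 660, and when all lists were shortened to 9389 peaks. The nearest CAGCTG lay 629 bp from its maximum. The other 3 regions in the H19 window were called in +dox replicate 3 alone, at 8 to 12 alignments, and 1 of them lay 2433 bp upstream of the start, on the side of the imprinting control region.

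The highest MyoD1 region within 25 kb of the 10 genes lay outside the H19 window, 23228 bp from the gene body, and is given for that reason, having been chosen after its values were seen. It spanned chr7:142549551-142552300, with its maximum 26967 bp downstream of the H19 start, in an intron of the non-coding gene Nctc1. Its maxima were 730, 1016 and 500 alignments in no dox replicates 1 to 3 and 381, 806 and 1628 in +dox replicates 1 to 3. By maximum signal it ranked 6th, 12th and 3rd in the no dox lists and 124th, 15th and 4th in the +dox lists, so it was near the top of every list but lower in +dox replicate 1 than in the others. The maxima of the 6 libraries fell within 100 bp of each other. In the library where the region had its highest percentile, the maximum lay 4 bp from a CAGCTG. The region extended by 100 bp held 4 copies. Relative to the median shared region its log2 maximum signal was 4.42, 4.60 and 4.27 without dox and 2.93, 3.90 and 4.21 with dox. On this scale every +dox value was below every no dox value, and the share of shared regions that part so was not counted. By percentile within the lists the groups overlapped, at 99.95, 99.92 and 99.99 without dox and 99.02, 99.89 and 99.99 with dox. Between libraries of the same number the log2 differences were -1.49, -0.70 and -0.06. The difference of -0.75 ± 0.39 (SE, n = 3 per group) lay at the 7.65th percentile of those of all shared regions. Its adjusted p was 0.984 in limma over the 4838 regions called in all 6 libraries. With the replicate number as a block it was 0.201. The difference was -0.37 without +dox replicate 1, and 0.18 on the CPM values as deposited, the opposite direction.

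**Figure D1:**
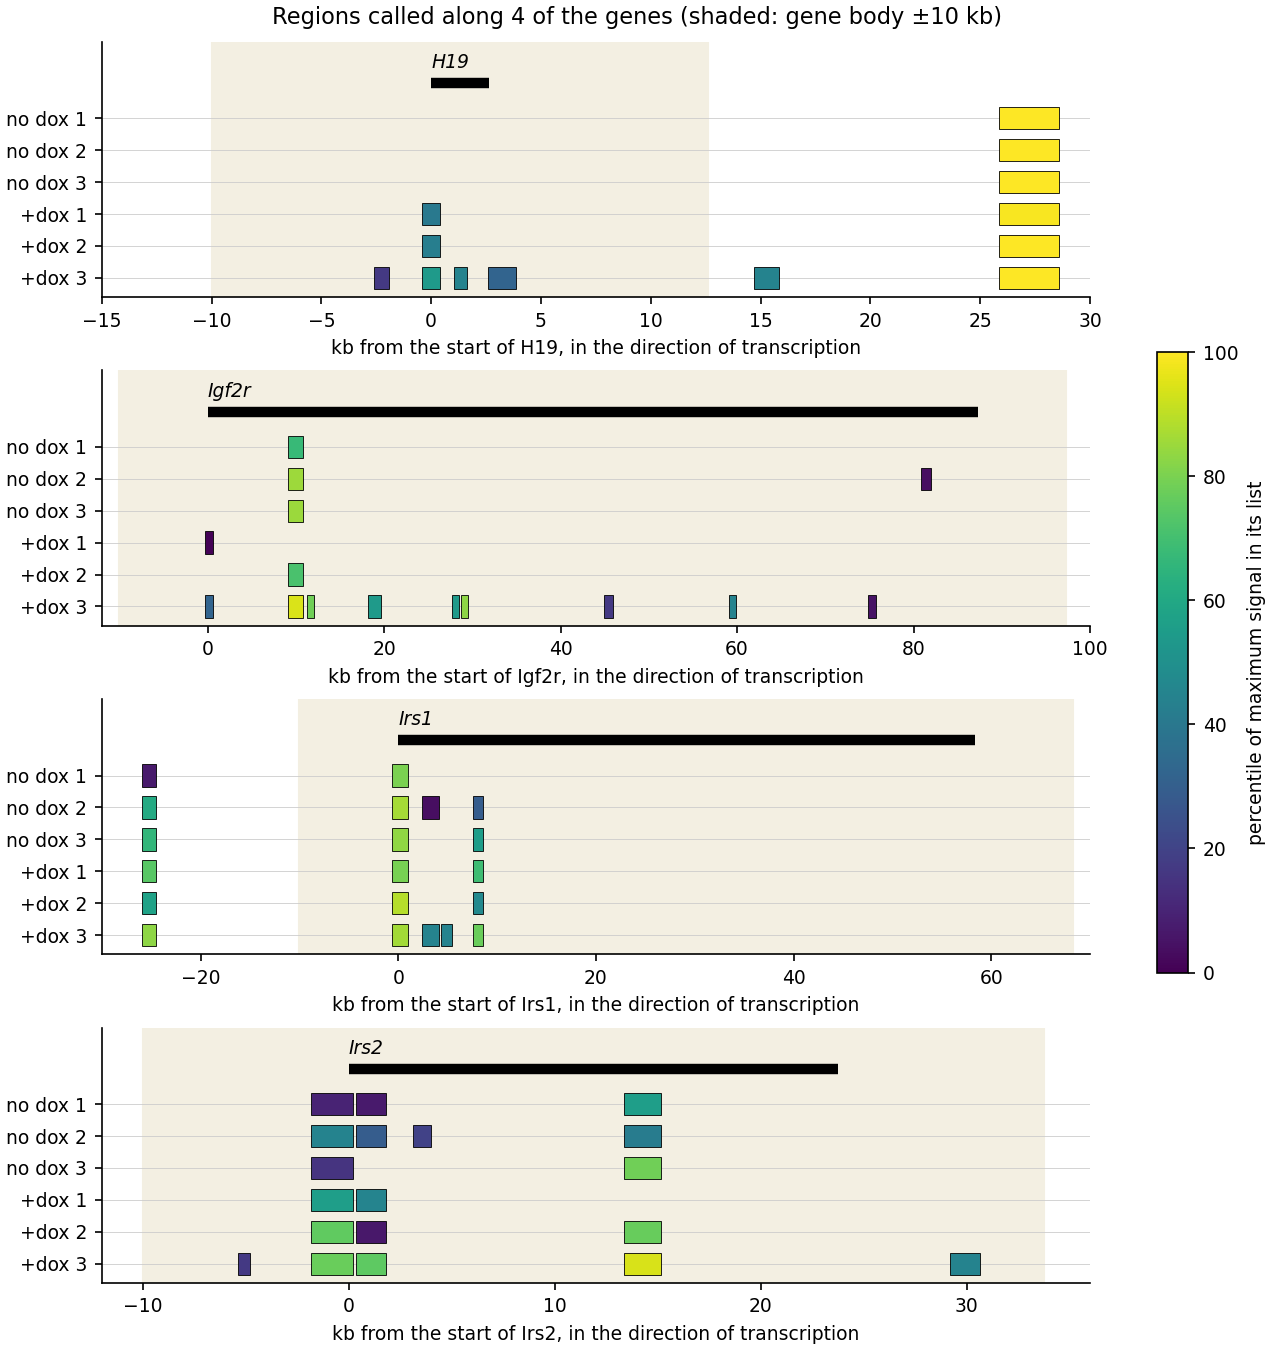
Regions called along H19, Igf2r, Irs1 and Irs2, with distance from the gene start in kb on the x axis and 1 line per library. A box marks a merged region called in that library, drawn at the full width of the merged region and coloured by the percentile of its maximum signal, the black bar is the gene, and the shading is the gene body with 10 kb on each side. The region downstream of H19 was called in all 6 libraries outside the shading, and the H19 promoter in the 3 +dox libraries.

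Igf1r, the gene of the receptor that transmits both ligands, had 2, 1 and 2 peaks without dox and 6, 2 and 10 with dox. Its 10 regions all had their maximum in introns, over a gene body of 281 kb. The promoter region, chr7:67950351-67953450, was called in all 6 libraries. It reached 22, 28 and 10 alignments in no dox replicates 1 to 3 and 32, 38 and 34 in +dox replicates 1 to 3. These counts are not scaled for depth. In CPM the maxima were 5.12, 6.32 and 2.14 without dox and 11.2, 10.6 and 4.23 with dox, and the groups overlapped. The percentiles were 48.5, 67.4 and 27.5 (mean 47.8 ± 20.0 SD, n = 3) without dox and 60.8, 67.7 and 81.1 (69.9 ± 10.3) with dox. The groups overlapped, since +dox replicate 1 was below no dox replicate 2. Its log2 maximum signal relative to the median shared region differed by 0.02 ± 0.42 (SE) between the groups. The adjusted p was 0.997 in limma, and 0.987 with the replicate number as a block. On the CPM values as deposited the difference was 0.95, with adjusted p = 0.254 in limma. The maxima were spread over 2000 bp of this region, and 4 copies of CAGCTG lay in it when it was extended by 100 bp.

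Of the other 9 Igf1r regions, 6 were called in +dox replicate 3 alone. A further 2 were called in +dox replicates 1 and 3 and in no other library. These were chr7:68128851-68129950, at the 16.0th and 77.0th percentile, and chr7:68193751-68194700, at the 49.3rd and 44.8th, which lies 90 bp from the start of a shorter Igf1r transcript and holds 5 copies of CAGCTG. The last, chr7:68021401-68022750, was called in no dox replicate 3 and in +dox replicates 1 and 3.

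Igf2r, the gene of the receptor that clears IGF2, had 1, 2 and 1 peaks without dox and 1, 1 and 9 with dox. The strongest region, chr17:12758901-12760600, lay in an intron 9813 bp from the start, where the antisense non-coding gene Airn also runs. It was called in all 3 no dox libraries and in +dox replicates 2 and 3, and not called in +dox replicate 1, the shallowest library. Its maxima were 32, 52 and 36 alignments without dox and 42 and 96 with dox. The percentiles were 67.5, 85.3 and 84.8 (79.2 ± 10.1 SD, n = 3) without dox and 71.1 and 94.2 in the 2 +dox libraries that called it, so the groups overlapped. The maxima lay within 50 bp of each other. That of +dox replicate 3, where the percentile was highest, lay 17 bp from a CAGCTG. The extended region held 6 copies, the most of any member region.

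The remaining 9 regions at Igf2r were low or rested on 1 library. In all, 7 were called in +dox replicate 3 alone, 2 of them within 685 bp of the start of Airn, whose promoter lies in the imprinted intron of Igf2r, at the 83.1st and 54.0th percentile. The Igf2r promoter, chr17:12769101-12770000, was called in +dox replicates 1 and 3 with 6 and 10 alignments. The last region was called in no dox replicate 2 alone, with 8 alignments.

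The binding protein genes had no region called in all 6 libraries. Igfbp3, which encodes the main carrier of IGFs in serum, had 0, 1 and 1 peaks without dox and 1, 0 and 4 with dox. Its most frequent region, chr11:7211101-7214400, covers the first part of the gene and was called at the 3.61st and 4.47th percentile in no dox replicates 2 and 3, and at the 16.0th and 60.2nd in +dox replicates 1 and 3. The groups did not overlap in the libraries that called it, and the share of all regions that part so was not counted. The maxima were 8 and 6 alignments against 12 and 16, and were spread over 2050 bp. Relative to the median shared region the log2 difference was -0.00526, in the limma fit of regions called in at least 2 libraries of each group. Of the other 2 regions, both in +dox replicate 3 alone, 1 lay in Igfbp1, 444 bp from its start.

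Igfbp4 had 1 peak in all 6 libraries, an intronic one of 8 alignments in +dox replicate 3, at chr11:99051001-99051900. Igfbp5, whose product is a binding protein known to rise as myoblasts differentiate, had 0, 2 and 2 peaks without dox and 0, 0 and 4 with dox. Its most frequent region, chr1:72869801-72873000 in an intron, was called in no dox replicates 2 and 3 at the 37.5th and 14.9th percentile and in +dox replicate 3 at the 86.3rd. This was the 1 member region called in at least 2 of 3 no dox libraries and fewer than 2 of 3 +dox libraries, 2.08% of the 48 against 1.65% of all regions. The Igfbp5 promoter was called in +dox replicate 3 alone, with 8 alignments.

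**Figure D2:**
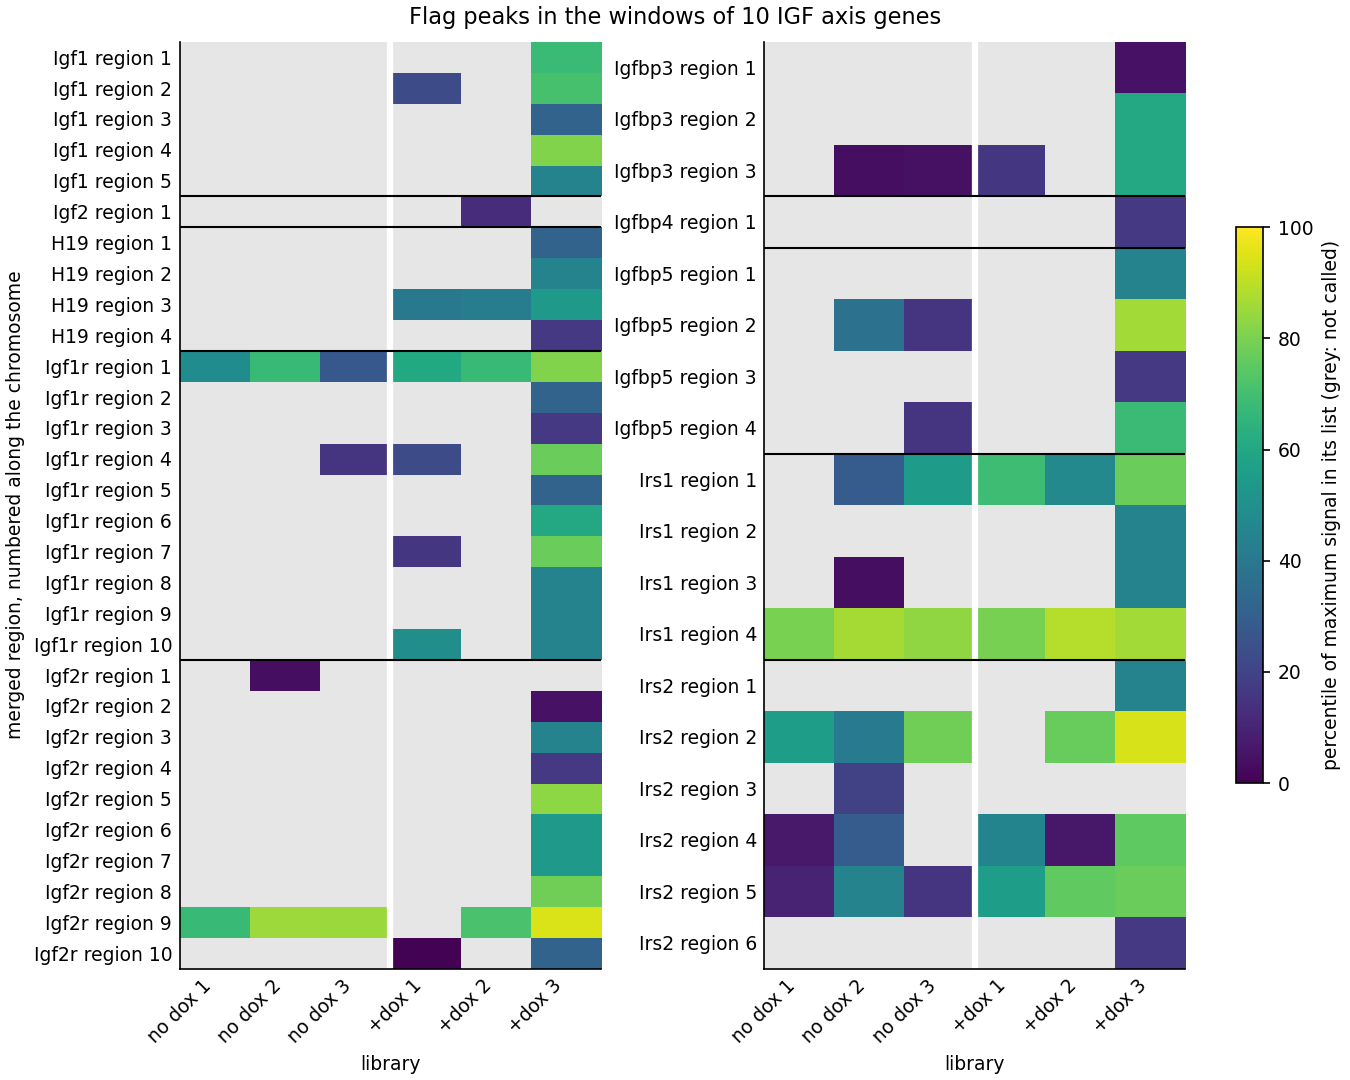
Percentile of the maximum signal of each of the 48 member regions, by library, with regions in rows and the 6 libraries in columns. Grey marks a region that was not called. The +dox replicate 3 column is the fullest, Irs1 region 4 is high in all 6 columns at 79.6 to 88.7, and H19 region 3 is filled in the 3 +dox columns alone.

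Irs1, the gene of a docking protein of the IGF1 and insulin receptors, had 1, 3 and 2 peaks without dox and 2, 2 and 4 with dox. Its promoter region, chr1:82290401-82292050, was the highest member region called in all 6 libraries. It reached 46, 56 and 34 alignments without dox and 58, 88 and 46 with dox. The percentiles were 80.0, 86.6 and 83.5 (83.4 ± 3.30 SD, n = 3) and 79.6, 88.7 and 86.3 (84.9 ± 4.72), and the groups overlapped. Relative to the median shared region, its log2 maximum signal was 0.44, 0.42 and 0.39 without dox and 0.21, 0.70 and -0.94 with dox. The difference was -0.42 ± 0.47 (SE), with adjusted p = 0.984 in limma, and adjusted p = 0.667 with the replicate number as a block. It rested on +dox replicate 3, without which it was 0.05, and it was 0.51 on the CPM values as deposited. The region held 2 copies of CAGCTG when extended by 100 bp. The nearer lay 60 bp from the maximum of +dox replicate 2, where the percentile was highest, and outside the run shown above. The maxima of the 6 libraries were spread over 350 bp.

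A second Irs1 region, chr1:82282851-82283800 in an intron, was called in no dox replicates 2 and 3 at the 29.1st and 55.3rd percentile and in all 3 +dox libraries at the 68.9th, 46.9th and 77.0th. The groups overlapped. The other 2 regions lay in the coding exon and were called in +dox replicate 3, 1 of them also in no dox replicate 2.

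Irs2, the gene of the other docking protein, had 3, 4 and 2 peaks without dox and 2, 3 and 5 with dox, and 3 of its 6 regions were called in at least 2 libraries of each group. The promoter region, chr8:11008251-11010300, was called in all 6 libraries, with its maximum 568 bp upstream of the start. It reached 11, 18 and 8 alignments in no dox replicates 1 to 3 and 28, 48 and 28 in +dox replicates 1 to 3. These counts are not scaled for depth. In CPM the maxima were 2.56, 4.06 and 1.71 without dox and 9.76, 13.3 and 3.49 with dox, and the groups overlapped. The percentiles were 9.71, 44.9 and 14.9 (23.2 ± 19 SD, n = 3) without dox and 55.8, 75.4 and 77.0 (69.4 ± 11.8) with dox, so every +dox value was above every no dox value. The same held for 1146 of the 4838 regions called in all 6 libraries, or 23.7%, and the opposite for 2 regions, 0.0413%. The other 2 member regions called in all 6, at Igf1r and Irs1, overlapped.

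On the scale centred on the median shared region, the groups also overlapped at the Irs2 promoter. The log2 maximum signal was -1.63, -1.22 and -1.70 without dox and -0.84, -0.17 and -1.65 with dox. Between libraries of the same number +dox was higher by 0.79, 1.05 and 0.05. The difference was 0.63 ± 0.44 (SE), with adjusted p = 0.984 in limma, and adjusted p = 0.509 with the replicate number as a block, and it lay at the 92.5th percentile of the differences of all shared regions. Leaving out 1 library at a time gave 0.27 without +dox replicate 2 and 1.01 without +dox replicate 3, and the CPM values as deposited gave 1.56. The region held no CAGCTG in itself or within 100 bp of its ends.

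An Irs2 intron region, chr8:10993301-10995100, was called in all 3 no dox libraries at the 55.5th, 41.6th and 78.4th percentile and in +dox replicates 2 and 3 at the 76.6th and 93.9th. As at the Igf2r intron, +dox replicate 1 did not call it. A region in the coding exon, chr8:11006651-11008100, was called in no dox replicates 1 and 2 and in all +dox libraries. The other 3 Irs2 regions were called in 1 library each.

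**Figure D3:**
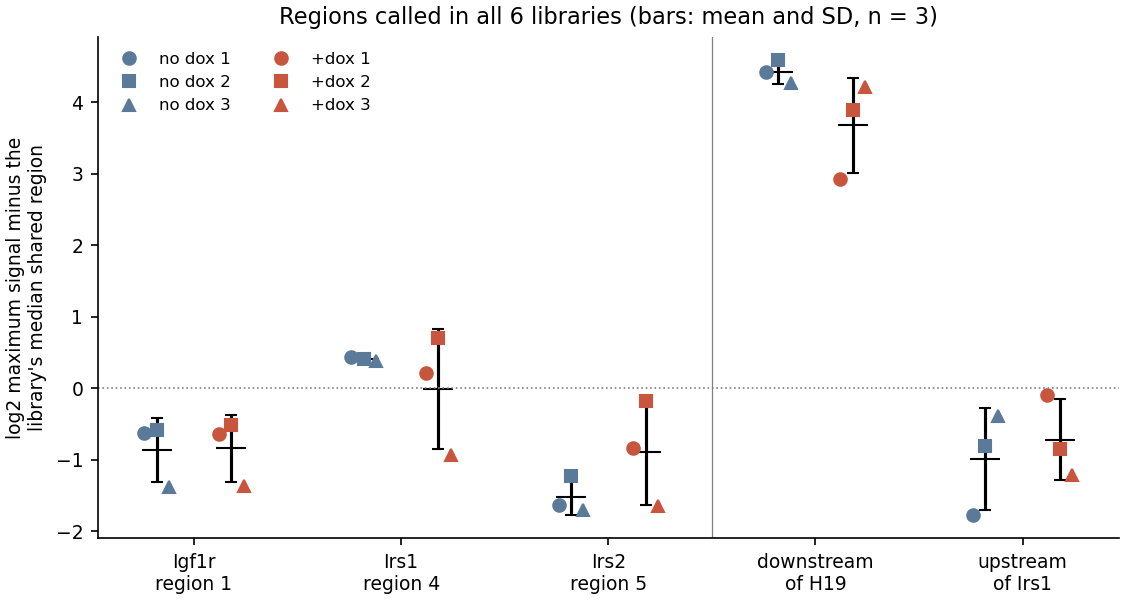
Log2 maximum signal minus that of the library's median shared region (y axis) for the 3 member regions called in all 6 libraries and, right of the line, for the 2 such regions 10 to 25 kb from a member. Points are libraries, and bars give the mean and SD of 3. The values of +dox replicate 3 are the lowest of the +dox group at all 3 member regions, and the groups overlap at all 3 member regions.

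Across the shared regions limma called none at an adjusted p of 0.05, with 0 of 4838 (0%) higher and 0 (0%) lower with dox. At an unadjusted p below 0.05 there were 37 higher and 87 lower, 2.56% in all, and none of the 3 member regions was among them. With the replicate number as a block, 1 region was lower, and it was not a member. On CPM values as deposited 1158 regions were higher and 0 lower at an unadjusted p below 0.05, with none past the adjusted threshold. The Irs2 promoter was among the 1158 (unadjusted p = 0.0142 in limma, and 0.0155 on percentiles), and the median region was higher with dox by 0.91 on the log2 scale. Changes given relative to the median shared region leave that shift out.

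The longest list, that of +dox replicate 3, had the most peaks in the 10 windows, 46. Among the other lists the number did not strictly follow length, with 14 of 12536 peaks in +dox replicate 1 and 10 of 13260 in +dox replicate 2. The windows held a mean of 10 ± 3 peaks (SD, n = 3) without dox and 23.3 ± 19.7 with dox. The difference of 13.3 came to 2.0 without +dox replicate 3. Per 1000 peaks of a list there were 0.746, 0.937 and 0.746 without dox (0.809 ± 0.110) and 1.12, 0.754 and 0.857 with dox (0.909 ± 0.187). The difference of 0.0999 was smaller than the SD of either group, and the groups overlapped. Without +dox replicate 1 it was -0.0038.

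**Figure D4:**
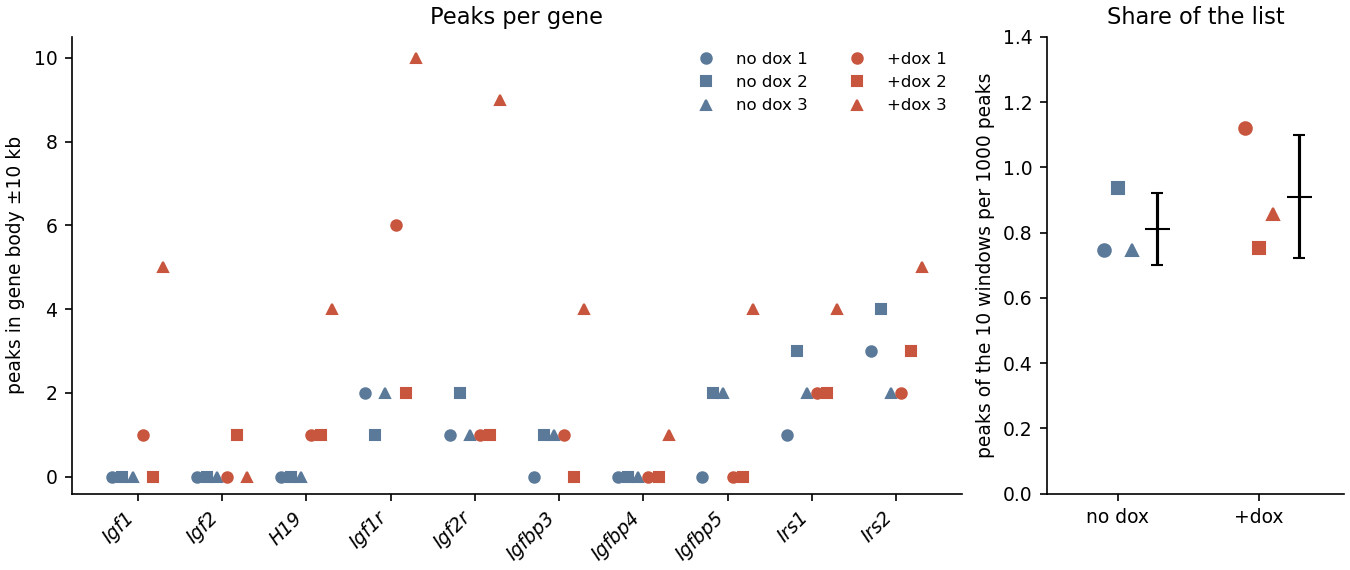
Left, peaks in each gene's window (gene body with 10 kb on each side) in each of the 6 libraries. Right, peaks of all 10 windows per 1000 peaks of the list, with the mean and SD of 3 libraries. The highest counts, 10 at Igf1r and 9 at Igf2r, are those of +dox replicate 3, while per 1000 peaks the groups overlap.

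Of the 48 member regions, 28 were called in +dox replicate 3 alone, 58.3% against 59.2% of all regions. These reached 6 to 38 alignments at the maximum, with a median of 12, and the 4.90th to the 83.1st percentile. In that deep list 12 alignments was the 44.8th percentile, whereas the 12 alignments at Igf2 were the 12.5th percentile of the +dox replicate 2 list, so equal percentiles did not mean equal counts. At least 2 of 3 no dox libraries called 9 member regions, 18.8% against 16.2% of all regions, and 5 without no dox replicate 2. At least 2 of 3 +dox libraries called 14, 29.2% against 23.7% of all regions, and this came to 6 without +dox replicate 3 and 8 without +dox replicate 1. With 1 library of a group left out, the rule asked for every remaining library of that group. It was thus stricter, and these counts could only fall or stay unless regions split. The shares of all regions with the same library left out were not counted. Of the members, 6 of 48 regions (12.5%) were called in at least 2 +dox and fewer than 2 no dox libraries, against 9.14% of all regions. All 6 libraries called 3 regions (6.25%), against 8.30% of all regions.

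The median percentile of the member peaks was 48.5, 29.1 and 21.2 without dox (32.9 ± 14.1 SD, n = 3) and 42.9, 57.3 and 44.8 with dox (48.4 ± 7.83). The groups overlapped, and the difference of 15.4 turned to -10.6 when all lists were shortened to 9389 peaks. All 10 genes had at least 1 peak in 1 of the lists, as did 66.4% of 27805 protein coding and lincRNA genes. The members with a peak in all 6 libraries were Igf1r, Igf2r, Irs1 and Irs2, 4 of 10, against 21.4% of the same 27805 genes. These shares were not matched for window length, which ran from 22.6 kb at H19 to 301 kb at Igf1r.

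The maximum lay in an intron in 33 of 48 and within 1 kb of an annotated start in 16. CAGCTG (a palindrome, so read alike on both strands) was present in 32 of the 48 regions extended by 100 bp on each side, or 66.7% (95% Wilson interval 52.5 to 78.3%, which covers counting error alone), against 64.1% of all regions. The counts were 3 of 5 at Igf1, 0 of 1 at Igf2, 1 of 4 at H19, 7 of 10 at Igf1r, 7 of 10 at Igf2r, 3 of 3 at Igfbp3, 1 of 1 at Igfbp4, 3 of 4 at Igfbp5, 3 of 4 at Irs1 and 4 of 6 at Irs2. Among regions called in at least 2 libraries the share was 70.6% of 17 member regions and 74.3% of all. The E-box CAGGTG, searched on both strands, was in 68.8% of member regions and 66% of all, and in 15 of the 17 called in at least 2 libraries, 88.2% against 73.8%. Within 100 bp of the maximum it was in 3 of these 17, 17.6% against 19.3%. The AP-1 motif TGANTCA, also on both strands, was in 35.4% of member regions and 38.1% of all.

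A wider list of 45 genes of IGF and insulin signalling, taken by the same window rule, held 245 regions, 4 of them shared with the windows of Igfbp3 and Igfbp5. A peak was found at 42 of the 45 genes, 93.3% against 66.4% of all protein coding and lincRNA genes, and in all 6 libraries at 20, 44.4% against 21.4%. Of the 245 regions themselves, 8.98% were called in all 6 libraries, against 8.30% of all regions. The shares of genes were not matched for window length, so they do not show an excess at these genes. By role, those with a peak in all 6 were 7 of 9 genes of PI3 kinase and Akt, 5 of 9 of the mTOR branch, 3 of 8 adaptors, 2 of 5 genes of Foxo and its muscle targets, 2 of 9 binding proteins and their regulators, 1 of 3 Igf2 mRNA-binding proteins and 0 of 2 receptor relatives. The list had 4.32 ± 0.366 peaks per 1000 without dox and 4.37 ± 0.167 with dox (SD, n = 3), a difference smaller than either SD. The median percentile of its peaks was 49.0 ± 1.73 and 51.9 ± 2.66.

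In the wider list, 3 regions (1.22%) were likewise called in every +dox library and no no dox library. Among them were a region in an intron of Insr, the insulin receptor gene, at the 55.8th, 19th and 44.8th percentile in +dox replicates 1 to 3, and a region 745 bp from the start of Pik3ca, which encodes a catalytic subunit of PI3 kinase, at the 65.3rd, 57.6th and 70.8th. No region of the list had the reverse pattern. The highest regions called in all 6 libraries lay in introns of Rptor, which encodes a subunit of mTOR complex 1, at a mean percentile of 97.4, and of Igf2bp2, at 90.5, and 59 bp from the start of Pik3r1, a regulatory subunit of PI3 kinase, at 88.4. The Rptor intron, at 95.4 to 99.2 over the 6 libraries, was above every member region, which reached at most 94.2.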

How the data were processed

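CUT and RUN reads were processed by the authors with nf-core/cutandrun 3.2.2 on mm10, with the blacklist removed, coverage scaled to CPM, and peaks called by SEACR (relaxed) in each library on its own. The submitters' processing notes also name deepTools. Each deposited list gives, per peak, the total signal and the maximum signal (coverage in CPM). CPM has no spike-in scale. No control library for peak calling is given in the sources used here. The lists lie on a grid of 50 bp.

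Here, the 6 lists were merged into regions (Python 3.11.15, pandas 2.3.3), the highest peak of a library standing for a region, and annotated with GENCODE vM21 on GRCm38. Sequences were read from the GRCm38 FASTA. Depth came from the step between maximum signals: within 0.01 alignments, 100% of the maxima up to 200 alignments were whole. Log2 maximum signal, centred on the median of the regions called in all 6 libraries, was tested with limma 3.58.1 (R 4.3.3, trend, Benjamini-Hochberg over all such regions, threshold 0.05). Merging and test were tried on simulated data. Sums over the members and single calls were described without a test.

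The labels number the biological replicates alike in both groups. Over shared regions the deviations of same-numbered libraries correlated at 0.485, 0.267 and 0.628. Between libraries of differing number the correlations ran from -0.56 to 0.265, the latter close to that of replicate 2. The deviations were from each group's mean and so cancel within a group. Positive correlations in some pairs thus force negative ones in others, and the contrast is no test of pairing. Main fits did not use the numbers. The numbers were taken to pair the libraries in alternative fits, with the number as a block. Alternatives were other windows, lists of equal length, a common floor, other scalings and each library left out. Described in full, by rule, were each member's region called in the most libraries, any region called in every library of 1 group and none of the other, and any called in all 6. The members, lists and rules were chosen with earlier results of these data known. The values of 1 gene of the wider list that the rule would name are not reported here.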

Additional observations from a re-analysis of the deposited data

How the results depend on the processing

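Shortening all lists to 9389 peaks by maximum signal gave a median percentile difference of -10.6, 5 and 7 member regions in at least 2 no dox and +dox libraries, and 0 regions in every +dox and no no dox library. This last count was also 0 with a floor of 904 on total signal. The median percentile difference was 3.79 with 25 kb on each side and 2.67 by total signal. Within 100 bp of the maximum, 27.1% of member regions held CAGCTG, against 30.1% of all regions. With the replicate block limma called 1 region lower, and the block changed no other call. Leaving out 1 library at a time gave 2.0 to 20.0 for the difference in peaks (lowest without +dox replicate 3), -0.0038 to 0.178 per 1000 peaks (lowest without +dox replicate 1), 9.56 to 23.2 for the median percentile, 5 to 9 regions in at least 2 no dox libraries (5 without no dox replicate 2), 6 to 14 in at least 2 +dox libraries (8 without +dox replicate 1, 6 without +dox replicate 3), and 1 to 5 in every +dox and no no dox library (5 without +dox replicate 2). With a library of a group left out, the rule of at least 2 libraries asked for every remaining library of that group, so it was stricter. These counts of regions were not set against the share of all regions with the same library left out. The log2 change of the Igf1r promoter ran from -0.234 to 0.288 with 1 library left out and was -0.285 on total signal. That of the Irs1 promoter ran from -0.774 to 0.0466, and was 0.508 on CPM as deposited and 0.0338 within replicates 1 and 2, while its percentile differed by 1.47. That of the Irs2 promoter stayed positive in all alternatives run. A difference between the groups counted as the same if it kept its direction and moved by less than the pooled SD of the libraries. By that rule the peak difference of 13.3 counted as the same when it fell to 1 with lists of equal length. Limma counts that stayed at 0 also counted as the same. Of 151 alternative values, 129 were the same by such rules, 12 moved and 10 reversed, so the 129 do not measure how stable the results were. The cause was not tested. The regions called in +dox replicate 3 alone had a median maximum of 12 alignments, the same as that whole list, and the part of depth in the calls was not tested.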

Other observations

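Widening the windows from 10 to 25 kb added 19 regions, of which 16 were called in +dox replicate 3 alone and 3 in more than 1 library. Besides the region downstream of H19, 1 was called in all 6 libraries. It lay at chr1:82315951-82317300, with its nearer edge 24534 bp upstream of the Irs1 gene body, and 259 bp from the start of Rhbdd1, which encodes a rhomboid-type protease. Its maxima were 10, 24 and 20 alignments in no dox replicates 1 to 3 and 47, 30 and 38 in +dox replicates 1 to 3, and its percentiles were 6.80, 60.7 and 66 without dox (44.5 ± 32.7 SD, n = 3) and 74.0, 57.6 and 83.1 with dox (71.6 ± 12.9). The groups overlapped by percentile. They also overlapped in CPM, at 2.33, 5.42 and 4.29 without dox and 16.4, 8.34 and 4.73 with dox. The log2 difference relative to the median shared region was 0.27 ± 0.48 (SE, adjusted p = 0.984 in limma). The other added region called more than once lay 23580 bp beyond the end of Irs2 and was called in +dox replicates 2 and 3 with 10 and 8 alignments. Igf2 gained 1 region, called in +dox replicate 3 alone with 12 alignments, whose maximum lay in a coding exon of Ins2, an insulin gene next to Igf2.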
